A study of Mus musculus with 6 samples.

Results

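H2-Eb1, H2-Ea-ps, H2-T22 and H2-K2 are 4 genes of the mouse major histocompatibility complex (MHC) on chromosome 17, out of 27378 gene IDs in the deposited count table. They were chosen by their RNA levels in these 6 libraries, which those levels set apart, so the levels below are given as a description, with no test. Set against other MHC genes of the same cells, healthy replicate 1 and both control tumour libraries carried little of their RNA, and healthy replicate 2 and both Rbpj-deleted tumour libraries carried more. The question was whether the levels followed the tumour genotype or this split of the libraries, which was found in the data and matches no label.

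Immune cells sorted for the surface protein CD45 were profiled as single cells with 10x 3' v3 chemistry. The 3 groups, with 2 libraries each, were healthy brain (Trp53 wt, Rbpj wt), control tumour (Trp53 ko, Rbpj wt) and Rbpj-deleted tumour (Trp53 ko, Rbpj ko). Early gliomas were found by the GFP of the Rosa-CAG::GFP Cre reporter and micro-dissected, and the deletions belong to the tumour, while the cells sequenced were immune cells. Brains or tumours were pooled per group, 9 for healthy brain, 15 for control and 9 for Rbpj-deleted tumour, although the protocol loads each mouse into a well of its own. Strain, MHC haplotype, the promoter driving Cre, sex and age are not given in the sources used here. Which mice entered which library is not given either, so a p-value here speaks of differences among 6 libraries, some of which can be technical.

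MHC class II molecules are pairs of an alpha and a beta chain that present peptides to CD4 T cells. Mice have 2 such pairs, I-A (H2-Aa with H2-Ab1) and I-E (the Ea chain with the Eb chain, encoded by H2-Eb1), and Cd74 is the invariant chain that escorts both. Haplotypes, the sets of MHC alleles inherited together, differ between mouse strains. The C57BL/6 strain behind the reference genome has a deletion at the Ea gene and makes no I-E, which is why the reference lists the gene as the pseudogene H2-Ea-ps. Class I molecules pair a heavy chain such as H2-K1 or H2-D1 with B2m. H2-T22 encodes a nonclassical class I heavy chain that some gamma delta T cell receptors bind, and H2-K2 is a pseudogene resembling H2-K1. In healthy brain parenchyma microglia make little class II RNA, and they are known to make more in inflammation.

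In GENCODE vM21 (GRCm38, the mm10 build) all 4 genes lay on chromosome 17. H2-K2 (ENSMUSG00000067203) spanned chr17:33974659-33978827 on the minus strand and was annotated as a transcribed unprocessed pseudogene. H2-Eb1 (ENSMUSG00000060586), a protein-coding gene, spanned chr17:34305867-34316674 on the plus strand. H2-Ea-ps (ENSMUSG00000036322) spanned chr17:34341959-34344645 on the minus strand and was annotated as a polymorphic pseudogene with 4 exons and no start codon. H2-T22 (ENSMUSG00000056116), a protein-coding gene, spanned chr17:36037128-36042747 on the minus strand.

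The promoters of H2-Eb1 and H2-T22 are shown beside that of H2-Aa, the I-A alpha chain gene, because these genes' RNA moved differently between the libraries. Each runs from 250 bases before to 50 bases after the gene's start, from RefSeq (GRCm38.p6), where 2 of the 4 genes had an entry. Windows were chr17:34305617-34305916 (plus strand) for H2-Eb1, chr17:34287774-34288073 (minus strand) for H2-Aa and chr17:36042693-36042992 (minus strand) for H2-T22. Capitals mark matches, on either strand, to CCAAT (the core of the Y box of class II promoters), AGCAACNGATG and GCAACT (forms of the X box) and the core of an interferon-stimulated response element (a pair of GAAA words, 2 bases apart).
H2-Eb1: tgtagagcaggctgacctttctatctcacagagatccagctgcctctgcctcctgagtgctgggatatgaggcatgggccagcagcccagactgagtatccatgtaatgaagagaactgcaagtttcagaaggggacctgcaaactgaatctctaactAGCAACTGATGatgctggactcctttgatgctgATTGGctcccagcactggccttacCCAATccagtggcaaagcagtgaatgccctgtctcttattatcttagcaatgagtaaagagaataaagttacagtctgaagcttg
H2-Aa: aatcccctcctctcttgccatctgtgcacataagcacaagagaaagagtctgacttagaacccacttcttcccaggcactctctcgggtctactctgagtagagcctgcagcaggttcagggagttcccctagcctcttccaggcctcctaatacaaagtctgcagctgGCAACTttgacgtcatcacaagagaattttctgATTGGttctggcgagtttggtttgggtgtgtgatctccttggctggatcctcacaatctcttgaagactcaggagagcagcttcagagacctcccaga
H2-T22: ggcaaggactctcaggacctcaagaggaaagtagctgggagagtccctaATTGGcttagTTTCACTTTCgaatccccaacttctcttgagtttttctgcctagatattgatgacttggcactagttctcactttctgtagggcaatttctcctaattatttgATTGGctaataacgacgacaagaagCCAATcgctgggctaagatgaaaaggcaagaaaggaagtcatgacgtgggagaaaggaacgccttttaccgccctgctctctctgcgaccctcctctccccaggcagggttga

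The H2-Eb1 window held 2 CCAAT matches and 1 match to AGCAACNGATG, which overlaps its 1 match to GCAACT. H2-Aa held 1 CCAAT and 1 GCAACT, and H2-T22 held 3 CCAAT and 1 such pair of GAAA words. TTCNNNGAA, the core of a gamma-activated site, had no match in the 3 windows. Among all 32851 promoters of this length, 37.4% held CCAAT, 10.9% GCAACT, 3.44% the pair of GAAA words, 8.30% TTCNNNGAA and 0.0700% (23 promoters) AGCAACNGATG, a spelling taken from the H2-Eb1 window itself. The matches describe reference letters, and the animals' own sequence was not analysed here.

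The annotated sequence of H2-Ea-ps is shown because the gene is a pseudogene in the reference strain, while its RNA was abundant in some libraries. These are the first 120 bases of its first annotated exon (248 bases), at chr17:34344526-34344645 on the minus strand, from GENCODE vM21.
H2-Ea-ps: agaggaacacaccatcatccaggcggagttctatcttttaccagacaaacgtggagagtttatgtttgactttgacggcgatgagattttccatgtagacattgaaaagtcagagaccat

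For the class I members, near copies matter, because reads of one gene can be counted for another. The coding sequence of H2-K1 was aligned to a transcript of H2-K2, and that of H2-T22 to a transcript of H2-T10. The untranslated ends of H2-K1 and H2-T22 were thus not compared. Below are the 75-base windows in which each member differed most from its copy in these alignments, with the 14 differing bases of each pair in capitals. They lie at chr17:33978319-33978393 (H2-K2, exon 2), chr17:33999799-33999873 (H2-K1, exon 2), chr17:36040242-36040316 (H2-T22, exon 5) and chr17:36118953-36119027 (H2-T10, exon 4), all on the minus strand.
H2-K2: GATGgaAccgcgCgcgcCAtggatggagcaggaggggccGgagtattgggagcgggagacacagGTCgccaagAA
H2-K1: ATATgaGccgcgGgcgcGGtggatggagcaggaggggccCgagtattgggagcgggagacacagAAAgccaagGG
H2-T22: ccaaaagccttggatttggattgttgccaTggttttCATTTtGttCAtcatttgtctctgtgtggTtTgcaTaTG
H2-T10: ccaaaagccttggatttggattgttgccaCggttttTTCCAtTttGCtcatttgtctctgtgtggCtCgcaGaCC

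H2-K2 and H2-K1 were identical at 80.7% of 990 aligned bases, and H2-T22 and H2-T10 at 96.0% of 1030. Of the 31-base words in the annotated transcripts, 51.0% of those of H2-T22 and 16.6% of those of H2-K2 also occurred in other genes, chiefly H2-T10 and H2-D1 respectively. In the last 500 bases, where a 3' method reads, the shares were 45.0% and 23.8%. There H2-T22 shared words chiefly with H2-T10, then with Uba2, BC030499 and Cs. H2-K2 shared them chiefly with Gm11127, then with H2-D1. H2-K1, the copy aligned above, was not among the genes sharing most with H2-K2. H2-Eb1 shared 1.06% of its words and H2-Ea-ps 0% (0 of 1006). Counts of H2-T22 and H2-K2 are therefore uncertain as to their source among the genes sharing these words, and those of the class II members much less so.

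After filtering, 14796 cells were kept, between 525 and 6617 per library, and total counts per library lay between 17430763 and 55229031. Cell classes were named from marker RNA, hence the ending "-like", and MHC genes were not used to form them. Microglia-like cells numbered 4565, 215 and 181 in healthy replicate 1 and control replicates 1 and 2, and 1601, 938 and 158 in healthy replicate 2 and Rbpj-deleted replicates 1 and 2. Monocyte/macrophage-like cells numbered 934, 201 and 78, and 289, 703 and 771, in that order. Some clusters left unnamed, such as 5 and 10, scored highest for the microglia-like markers but are in neither class. Cluster 10, led by Spp1 and Fam20c, held 165 and 338 cells of Rbpj-deleted replicates 1 and 2. Different clusters held most of each class in different libraries. Healthy microglia-like cells lay mainly in clusters 1 and 2 in replicate 1 (2055 and 1842 cells) and in cluster 20 in replicate 2 (1298 cells, led by the heat shock genes Hspb1, Hspa1b and Hspa1a). Those of control tumours and Rbpj-deleted replicate 1 lay mainly in clusters 9 and 11 (led by Csf1, Egr3 and Tnf). In Rbpj-deleted replicate 2 the largest was cluster 20 (63 cells), with 29 and 44 cells in clusters 9 and 11. Control replicate 2 had 45 cells in cluster 20. Monocyte/macrophage-like cells of healthy brain lay mainly in cluster 0 (led by Lyve1 and Pf4, 920 and 267 cells), and those of tumours in clusters 4 (led by Ccl8 and Gbp2b) and 23 (led by Ly6i and Ms4a4c). In 119 cases a barcode sequence occurred in more than 1 library.

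In microglia-like cells H2-Eb1 was nearly silent in healthy brain, low in control tumours and among the more abundant RNAs in Rbpj-deleted tumours. Its level, in CPM (counts scaled to a common library size; each count is a unique molecular identifier, UMI, that is 1 captured RNA molecule), was 0.588 in healthy replicate 1 (18 UMIs), 42.6 in control replicate 1 and 51.8 in control replicate 2. It was 6.0 in healthy replicate 2 (67 UMIs), 5616 in Rbpj-deleted replicate 1 and 4036 in Rbpj-deleted replicate 2. The Rbpj-deleted libraries were far above the control libraries, without overlap, and healthy replicate 2 was above healthy replicate 1 but below both control libraries. The mean was 4826 ± 1117 CPM in Rbpj-deleted and 47.2 ± 6.46 in control tumours (SD, n = 2 each), a ratio of 102, and healthy replicate 2 was 10.2 times healthy replicate 1 (95% interval 5.99 to 18.2, counting error only).

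H2-Ea-ps, the I-E alpha chain gene, followed the same pattern. Its CPM in microglia-like cells was 0.752, 298 and 290 in healthy replicate 1 and control replicates 1 and 2. It was 7.53, 5056 and 3751 in healthy replicate 2 and Rbpj-deleted replicates 1 and 2. The tumour groups again did not overlap, with a ratio of means of 15.0, smaller than for H2-Eb1, and control tumours carried more H2-Ea-ps (294 ± 5.27 CPM, SD, n = 2) than H2-Eb1. Healthy replicate 2 was 10.0 times healthy replicate 1 (6.25 to 16.6) and below both control libraries.

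H2-T22 was the member whose microglia-like levels set the libraries apart without any overlap. Healthy replicate 1 and control replicates 1 and 2 had 0.294, 1.30 and 1.73 CPM, from 9, 3 and 3 UMIs. Healthy replicate 2 and Rbpj-deleted replicates 1 and 2 had 13, 95.7 and 61.0 CPM, from 145, 728 and 49 UMIs. The healthy libraries differed 44.2-fold (22.6 to 98.5) and the tumour group means 51.7-fold, and the counting intervals of both control libraries overlapped that of healthy replicate 1.

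H2-K2 had 3.27, 36.1 and 32.2 CPM in microglia-like cells of healthy replicate 1 and control replicates 1 and 2. It had 20.5, 753 and 531 CPM in healthy replicate 2 and Rbpj-deleted replicates 1 and 2. Tumour groups did not overlap (ratio of means 18.8), and healthy replicate 2, at 6.28 times healthy replicate 1 (4.94 to 8.02), was below both control libraries.

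**Figure D1:**
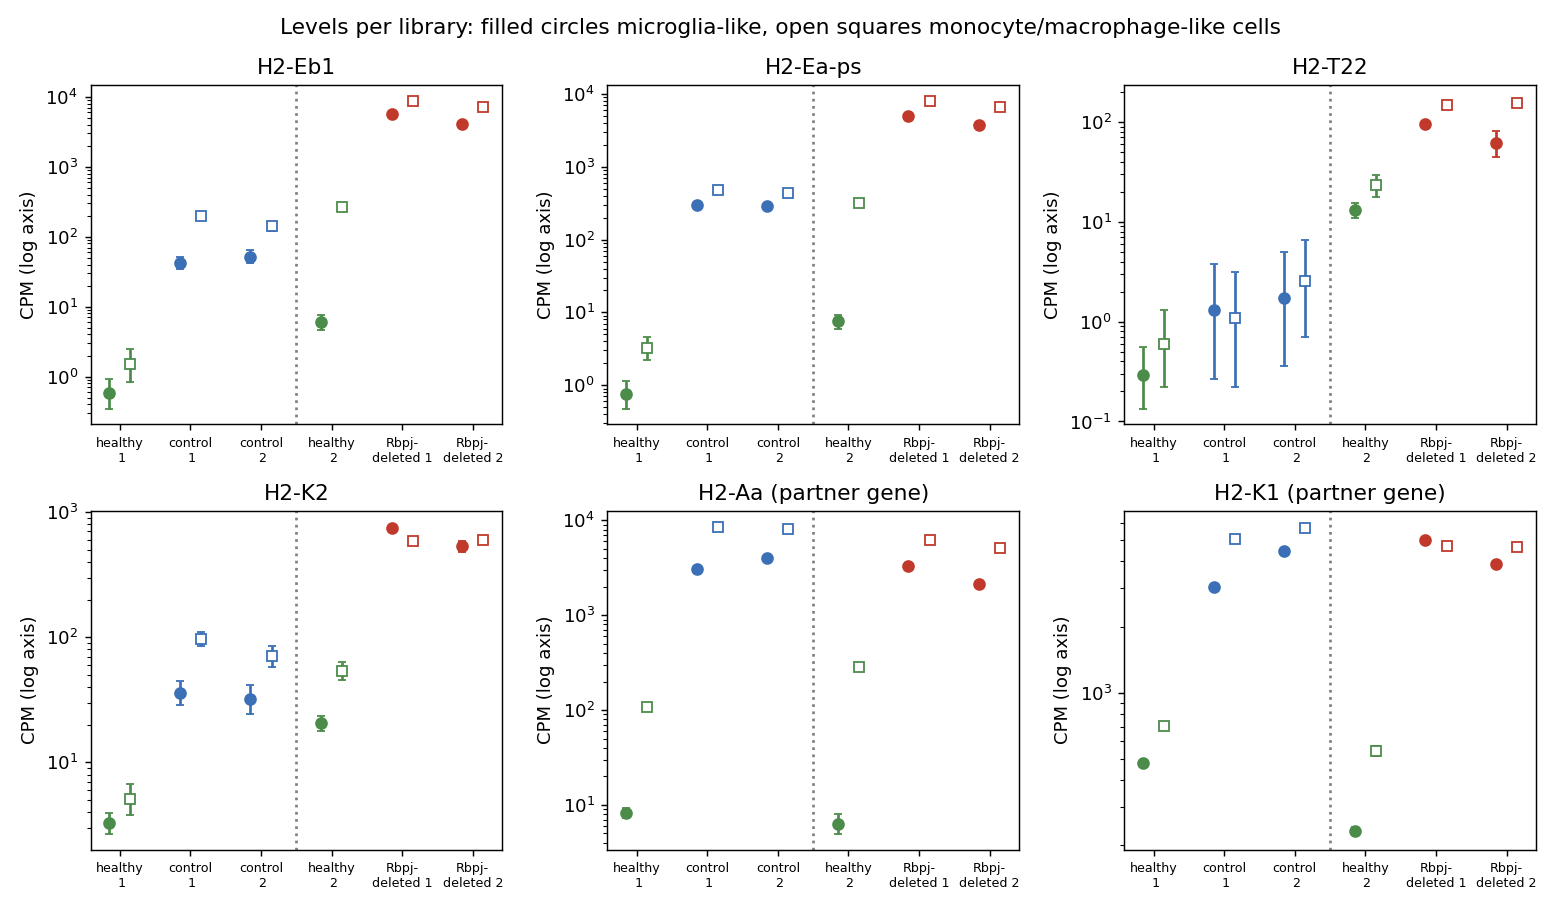
Level of the 4 members and of H2-Aa and H2-K1 in each library (CPM, log axis), in microglia-like cells (filled circles) and monocyte/macrophage-like cells (open squares), with 95% Poisson intervals as bars and a dotted line between the 2 sides of the split. Each member is higher in Rbpj-deleted than in control libraries and in healthy replicate 2 than in healthy replicate 1, while H2-Aa and H2-K1 are high in all 4 tumour libraries.

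Among monocyte/macrophage-like cells, a class that takes in border macrophages and monocytes by its markers, healthy replicate 2 carried far more class II member RNA than healthy replicate 1. H2-Eb1 stood at 1.5, 195 and 140 CPM in healthy replicate 1 and control replicates 1 and 2, and at 264, 8842 and 7147 CPM in healthy replicate 2 and Rbpj-deleted replicates 1 and 2. Here healthy replicate 2 was above both control libraries, so the sides of the split did not overlap, and it was 176 times healthy replicate 1 (106 to 316). H2-Ea-ps stood at 3.20, 486 and 438 against 315, 8136 and 6654 CPM in the same order. For this gene healthy replicate 2 remained below the control libraries, at 98.2 times healthy replicate 1 (69.0 to 144).

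H2-T22 was at 0.601, 1.08 and 2.56 CPM on the side of healthy replicate 1, from 6, 3 and 4 UMIs, and at 23.2, 147 and 156 CPM on the side of healthy replicate 2. The sides did not overlap, and the healthy libraries differed 38.6-fold (16.8 to 109). H2-K2 was at 5.11, 97.0 and 70.9 against 53.9, 588 and 594 CPM, with healthy replicate 2 below control tumours and 10.6 times healthy replicate 1 (7.64 to 14.8). In Rbpj-deleted against control tumours the ratios of means for H2-Eb1, H2-Ea-ps, H2-T22 and H2-K2 were 47.7, 16.0, 83.2 and 7.03.

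By level alone, then, 1 of 4 members (H2-T22) set the sides of the split fully apart in microglia-like cells and 2 of 4 (H2-Eb1 and H2-T22) in monocyte/macrophage-like cells, all higher with healthy replicate 2. The background share of genes that did so in that direction was 3.58% of 10795 genes tested and 2.32% of 11238, and 4.78% and 2.58% were lower without overlap. H2-T22 was the member whose sides lay at least 4-fold apart in both classes on CPM + 1, at 5.13-fold and 6.81-fold, where 0.0926% and 0.0712% of genes were so much higher and 0.0556% and 0.0534% so much lower. Between the tumour groups 4 of 4 members were higher in Rbpj-deleted libraries without overlap in both classes, where 21% and 16.3% of all genes tested did so. The members were picked for these levels, so nothing is read from the counts. All 4 passed the filter on low counts in both classes.

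The other genes of each molecule behaved differently. H2-Aa, the I-A alpha chain, stood at 8.24, 3047 and 3985 CPM in microglia-like cells of healthy replicate 1 and control replicates 1 and 2, and at 6.27, 3338 and 2152 CPM in healthy replicate 2 and Rbpj-deleted replicates 1 and 2. It was high in all 4 tumour libraries and low in both healthy libraries, with the tumour groups overlapping. H2-K1, the classical class I heavy chain, stood at 478, 3061 and 4442 against 234, 4997 and 3884 CPM. Between healthy replicates 2 and 1, the ratio in microglia-like cells was 0.761 for H2-Aa, 2.44 for H2-Ab1, 0.524 for Cd74, 0.489 for H2-K1, 0.373 for H2-D1 and 0.981 for B2m. In monocyte/macrophage-like cells the class II partners were higher in healthy replicate 2, as the members were, but by less: 2.65 times for H2-Aa, 2.07 for H2-Ab1 and 2.64 for Cd74, against 0.773 for H2-K1, 0.796 for H2-D1 and 1.16 for B2m.

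Against healthy brain, microglia-like cells of control tumours had more H2-Aa (log2 difference 8.90 ± 0.34 SE, adjusted p = 5.71e-09), H2-K1 (3.40 ± 0.38, adjusted p = 0.00157) and B2m (adjusted p = 0.00167), by edgeR's quasi-likelihood test with Benjamini-Hochberg adjustment over all genes. H2-D1 did not pass the test (3.71 ± 0.70, adjusted p = 0.0815). Without either healthy library it passed, at 4.59 without replicate 1 and 3.17 without replicate 2. All 6 of these partner genes rose in monocyte/macrophage-like cells of control tumours, with H2-Aa at 5.43 ± 0.59 (adjusted p = 0.00290). There B2m (1.90 ± 0.33, adjusted p = 0.0179) lost its call without healthy replicate 1 (1.76) and without healthy replicate 2 (2.0). The B2m call in that class was also lost with the split of the libraries entered in the fit as a batch term, and with the replicate numbers entered as a block. Between Rbpj-deleted and control tumours no partner gene was called in either class. The differences in microglia-like cells included -0.36 ± 0.24 for H2-Aa and, in monocyte/macrophage-like cells, -0.56 ± 0.49 for H2-Aa and -0.20 ± 0.35 for H2-K1.

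Class II and class I RNA per cell varies widely, so the members were also set against the partner genes of the same cells. In cells with at least 50 UMIs of H2-Aa, H2-Ab1 and Cd74 together, H2-Eb1 gave 0.413, 0.453 and 0.331 UMIs per 100 partner UMIs in healthy replicate 1 and control replicates 1 and 2. It gave 23.7, 31.3 and 31.2 in healthy replicate 2 and Rbpj-deleted replicates 1 and 2. On this measure healthy replicate 2 sat beside the Rbpj-deleted tumours and healthy replicate 1 beside the control tumours, with the lowest library of one side far above the highest of the other. H2-Ea-ps gave 0.738, 1.30 and 1.15 against 26.6, 29.0 and 29.4. These values came from 115, 377 and 239 against 78, 1485 and 948 cells.

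Single cells of the 2 sides hardly met. For H2-Eb1 the highest cell had 6.15, 3.16 and 2.86 UMIs per 100 partner UMIs in healthy replicate 1 and control replicates 1 and 2, and 0 cells of those libraries reached 10. In healthy replicate 2 and Rbpj-deleted replicates 1 and 2, 93.6%, 99.9% and 97.3% of cells (73, 1483 and 922) did. For H2-Ea-ps the highest cells had 5, 9.05 and 7.44, and the shares of cells reaching 10 on the other side were 96.2%, 98.7% and 98.6%. No H2-Eb1 UMI was found in 40.9%, 28.9% and 44.8% of the cells on the side of healthy replicate 1, against 0, 0 and 1 cells on the other. No library held a low and a high population of cells of similar size.

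**Figure D2:**
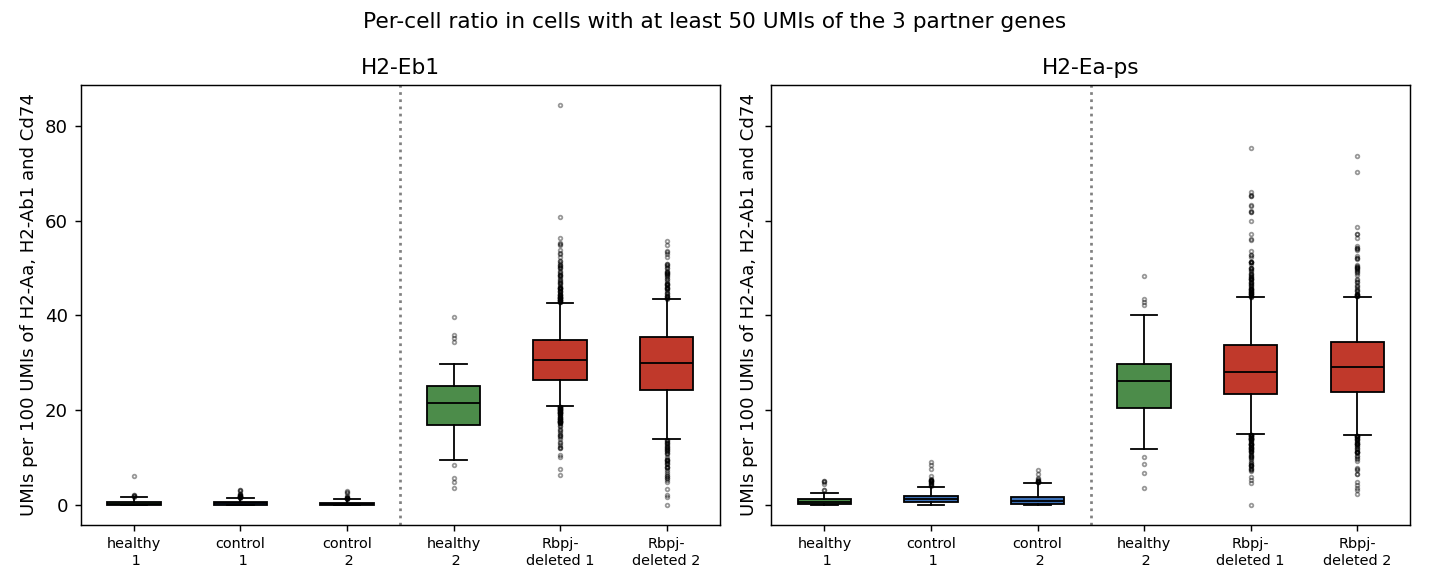
UMIs of H2-Eb1 and of H2-Ea-ps per 100 UMIs of H2-Aa, H2-Ab1 and Cd74 in single cells with at least 50 partner UMIs, by library (boxes are quartiles, whiskers the 5th to 95th percentile, points the cells outside). The median cell is at 0.241, 0.309 and 0.178 for H2-Eb1 on the side of healthy replicate 1 and at 21.5, 30.6 and 29.9 on the other.

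The ratio held in dendritic-like, B-like, monocyte/macrophage-like and microglia-like cells. It did not in neutrophil-like cells, where healthy replicate 2 (29 cells) had 0 UMIs of H2-Eb1 and of H2-Ea-ps. Those cells held 58 UMIs of Cd74, 13 of H2-Ab1 and 1 of H2-Aa. T-like and NK-like cells of healthy replicate 2 also had 0 UMIs of both genes, but only 1 and 2 partner UMIs, too few for a ratio. Dendritic-like cells, professional antigen-presenting cells, had 123, 186 and 104 CPM of H2-Eb1 on the side of healthy replicate 1 and 8436, 8362 and 8438 CPM on the other. Here healthy replicate 2 was level with the Rbpj-deleted tumours. Per 100 partner UMIs the range was 0.331 to 0.545 against 25.0 to 33.1 for H2-Eb1, and 0.687 to 1.20 against 26.6 to 29.7 for H2-Ea-ps. B-like cells, with 5 to 62 cells per library, gave 0.895 to 1.5 against 16.5 to 22.4 for H2-Eb1 and 1 to 3.26 against 24.5 to 45.2 for H2-Ea-ps.

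The ranges in monocyte/macrophage-like cells were 0.282 to 0.467 against 19.7 to 32.4 for H2-Eb1 and 0.602 to 1.16 against 23.5 to 29.8 for H2-Ea-ps. In microglia-like cells they were 0.246 to 0.572 against 5.02 to 31.5, and 0.731 to 1.79 against 6.30 to 29.3. The low ends of the higher ranges, 5.02 and 6.30, came from healthy replicate 2, whose 1601 microglia-like cells held 1334 partner UMIs in all. Of these, 904 were of H2-Ab1, 360 of Cd74 and 70 of H2-Aa. In Rbpj-deleted replicate 1 Cd74 led instead, with 81355 UMIs, against 37987 of H2-Ab1 and 25385 of H2-Aa. The ratio in healthy replicate 2 thus also depends on which partner genes are counted. For H2-Eb1 the 95% interval of healthy replicate 2, 3.89 to 6.38 (counting error only), lay above the 3 libraries of the other side. It lay below the 29.5 of Rbpj-deleted replicate 1.

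H2-T22 and H2-K2 were set against H2-K1 and H2-D1, which nearly all cells make. Per 100 UMIs of those 2 genes, H2-T22 gave 0.0123 to 0.0219 in microglia-like cells on the side of healthy replicate 1, and 2.34, 0.611 and 0.627 in healthy replicate 2 and Rbpj-deleted replicates 1 and 2. It gave, in monocyte/macrophage-like cells, 0.00693 to 0.0261 against 1.09 to 1.29. T-like cells had 0 to 0.0577 against 2.53 to 3.68. Healthy replicate 2, with 11 T-like cells and 12 UMIs, stood at 3.6, level with the 3.68 of Rbpj-deleted replicate 1. NK-like cells had 0 UMIs in all 3 libraries on the first side (1, 112 and 19 cells) and 1.14 to 2.22 per 100 on the other.

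H2-K2 gave 0.230 to 0.398 against 3.70 to 5.46 in microglia-like cells and 0.222 to 0.623 against 2.97 to 4.94 in monocyte/macrophage-like cells. Unlike H2-T22, it was detected on the first side in every class with at least 5 cells, and its gap was narrower. In T-like cells it gave 0.637 to 1.34 against 3.0 to 4.31, in dendritic-like cells 0.422 to 1.05 against 4.16 to 4.53, and in B-like cells 0.490 to 1.47 against 2.78 to 5.28. In the 6 classes examined (microglia-like, monocyte/macrophage-like, dendritic-like, B-like, T-like and NK-like) libraries with at least 5 cells did not overlap between the 2 sides for either gene, although some counting intervals met in B-like cells for both genes and in T-like and NK-like cells for H2-K2. Healthy replicate 1, left out of the NK-like comparison with its 1 cell, had 2 H2-K2 UMIs there, or 5.41 per 100 (95% interval 0.655 to 19.5), above all 3 libraries of the other side. The 14 bases that part H2-K2 from H2-K1 in the window above lie in exon 2 and not at the 3' end that the method reads, and the share of H2-K2 counts that came from copies was not tested.

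**Figure D3:**
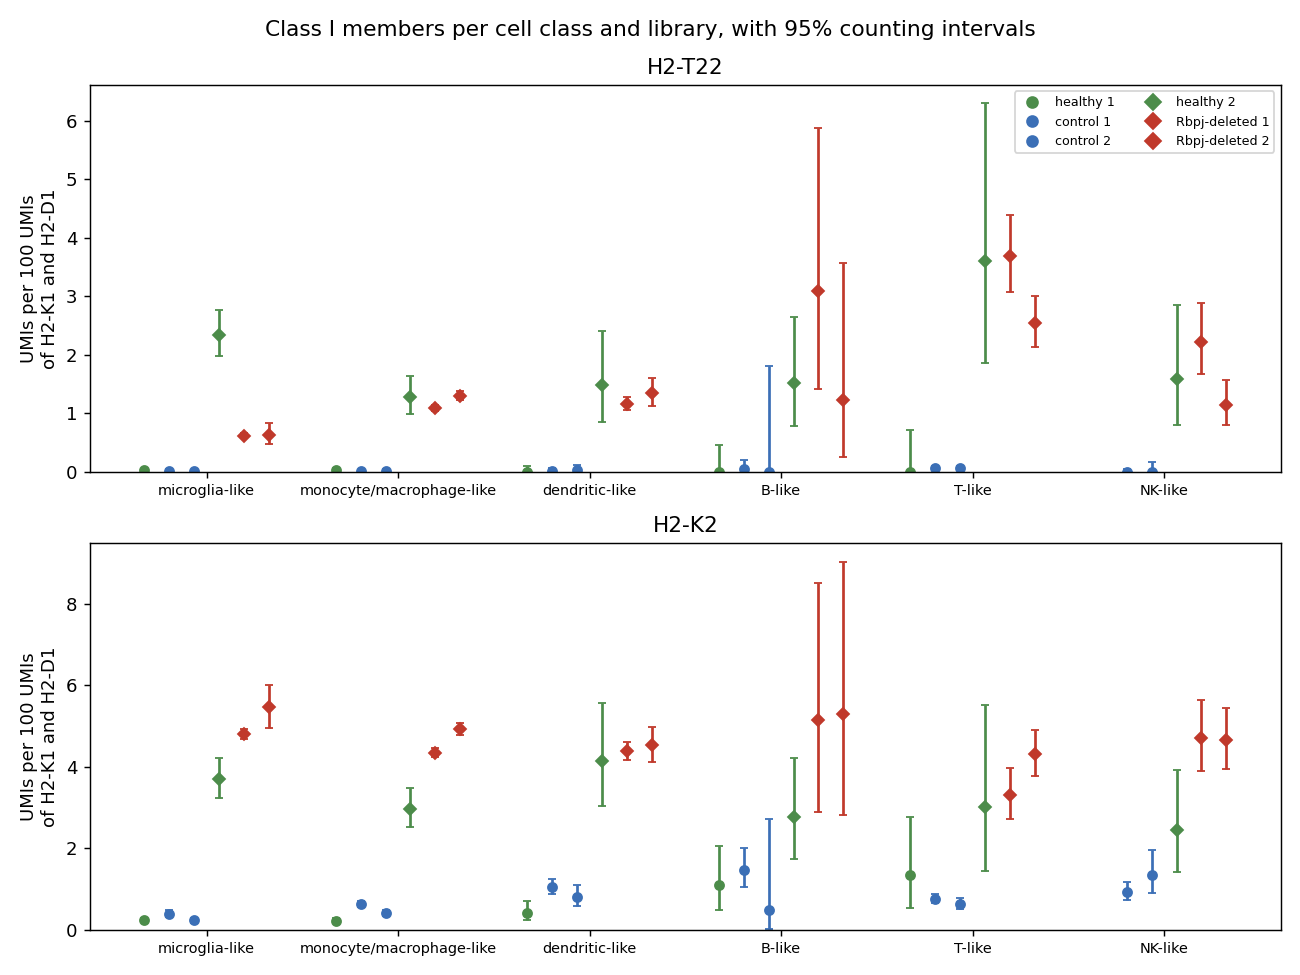
UMIs of H2-T22 and H2-K2 per 100 UMIs of H2-K1 and H2-D1 in 6 cell classes (linear axis from 0), 1 point per library with at least 5 cells and 95% counting intervals, circles for the side of healthy replicate 1 and diamonds for the side of healthy replicate 2. In each class the diamonds lie above the circles, with T-like cells at 2.53 to 3.68 for H2-T22.

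Because different clusters held most of a class in different libraries, clusters 0, 9 and 23 were also taken alone, a choice made after the data had been seen. These clusters had cells in all 6 libraries, but so had others, such as clusters 4, 11 and 20, which were not examined alone. In cluster 0, led by the border macrophage genes Lyve1 and Pf4, H2-Eb1 per 100 partner UMIs was 0.294, 0.714 and 0.338 (920, 29 and 10 cells) on the side of healthy replicate 1. On the other side it was 17.1, 26.7 and 28.1 (267, 59 and 63 cells). In cluster 9, of microglia-like cells, it was 0.122, 0.177 and 0.187 against 2.26, 29.3 and 26.4, where healthy replicate 2 rested on 3 H2-Eb1 UMIs. In cluster 23 it was 0, 0.539 and 0.424 against 15.6, 30.1 and 29.5. H2-K2 per 100 UMIs of H2-K1 and H2-D1 was 0.222, 0.0766 and 0.281 against 2.96, 4.09 and 4.89 in cluster 0. The sides did not overlap in these 3 clusters for these 2 genes.

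The share of cells with at least 1 UMI was compared after thinning each cell to 3000 UMIs, which left out between 13 and 262 microglia-like cells per library. For H2-Eb1 it was 0.209%, 8.42% and 8.09% of microglia-like cells in healthy replicate 1 and control replicates 1 and 2 (without thinning 0.394%, 20.9% and 22.1%). It was 1.52%, 86.7% and 70.2% in healthy replicate 2 and Rbpj-deleted replicates 1 and 2 (3.37%, 91.7% and 68.4% without thinning). T-like cells, which should lack class II RNA in mice and were thinned to the same depth, gave 0 of 11 cells (upper bound 28.5%), 1.09% and 0 of 103 cells (upper bound 3.52%) against 0 of 10 cells (upper bound 30.8%), 30% and 10.7%. The shares in microglia-like cells of tumours exceeded those in T-like cells of the same library, and the few T-like cells of healthy brain set only a wide upper bound on the background there. H2-Aa, whose libraries overlapped between the sides, stood at 42.1 and 41.0 CPM in T-like cells of control tumours and at 105 and 49.1 CPM in those of Rbpj-deleted tumours.

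For H2-Ea-ps the thinned shares in microglia-like cells were 0.139%, 32.7% and 33.8% against 2.12%, 85.1% and 64.5% (0.438%, 40% and 47.0% against 4.18%, 90.1% and 63.3% without thinning). For H2-K2 they were 1.02%, 7.92% and 8.82% against 6.02%, 79.1% and 67.8% (1.99%, 22.8% and 22.7% against 12.4%, 84.9% and 67.1% without thinning). For H2-T22 they were 0.0930%, 0 of 202 cells (upper bound 1.81%) and 0.735% against 4.10%, 22.1% and 17.4%. Without thinning they were 0.175%, 1.40% and 1.66% against 8.12%, 40.9% and 21.5%. H2-T22 was again the member whose shares did not overlap between the sides, and for the other 3 healthy replicate 2 lay below control tumours.

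In the 3-group fits, the difference of Rbpj-deleted from control tumours in microglia-like cells was 6.68 ± 1.27 (log2 ± SE) for H2-Eb1, 3.90 ± 1.13 for H2-Ea-ps, 5.76 ± 2.61 for H2-T22 and 4.24 ± 1.11 for H2-K2. With the split entered as a batch term the values were 3.36 ± 0.57, 0.60 ± 0.50, 0.38 ± 0.95 and 1.59 ± 0.38. In monocyte/macrophage-like cells the differences were 5.57 ± 2.01, 4.0 ± 1.74, 6.50 ± 1.70 and 2.81 ± 0.98, and with the batch term -1.87 ± 0.71, -2.61 ± 0.65, 1.28 ± 0.80 and -0.59 ± 0.57. The differences for H2-Eb1, H2-Ea-ps and H2-K2 thus turned negative in that class once the split was in the fit. All control libraries lie on one side and all Rbpj-deleted libraries on the other, so the batch term comes from the difference of the healthy libraries only, and within the tumours genotype and split cannot be told apart.

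Genes of the MHC region gave 2 patterns. Within 2500 kb of H2-Eb1, 141 genes were tested in each class, the members included. The libraries parted by the split for 14.2% of them in microglia-like cells (9 higher and 11 lower with healthy replicate 2). In monocyte/macrophage-like cells they did so for 13.5% (11 and 8). The shares in the rest of the genome were 8.28% and 4.79%. Among the higher genes were H2-T22 in both classes and H2-Eb1 in monocyte/macrophage-like cells. The members were picked for these levels, so the shares near H2-Eb1 are partly set by that choice. Btnl2, a butyrophilin-like gene beside the class II genes, stood at 19.5, 24.4 and 17.3 CPM in microglia-like cells on the side of healthy replicate 1 and at 0, 0 and 1.24 CPM on the other. Msh5, a meiotic mismatch repair gene, stood at 1.63, 1.30 and 1.73 against 36.2, 28.5 and 36.1 CPM. These 2 genes, picked after their values were seen, were near level within each side, in healthy brain and tumour alike. H2-T23, a nonclassical class I gene, stood at 18.6, 165 and 204 against 85.1, 585 and 479 CPM, with healthy replicate 2 between healthy replicate 1 and the control tumours, as for H2-K2.

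**Figure D4:**
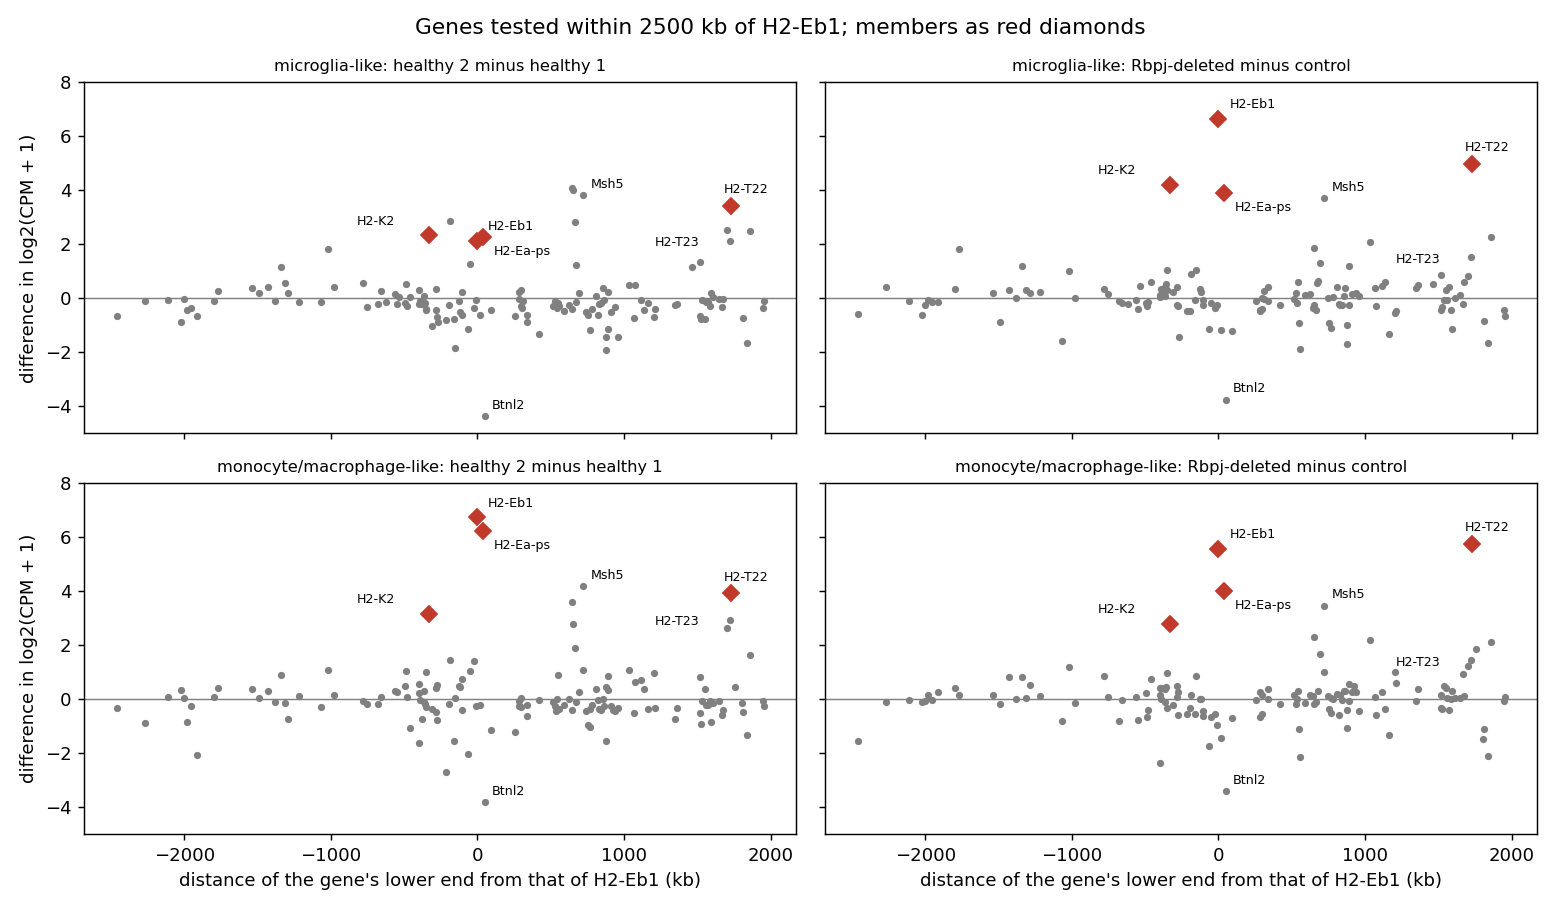
Difference in log2(CPM + 1) of healthy replicate 2 from healthy replicate 1 and of the Rbpj-deleted mean from the control mean, for the 141 tested genes within 2500 kb of H2-Eb1, by distance from it (kb), in both myeloid classes. The members (red diamonds) and Msh5 lie above 0 and Btnl2 below 0 in all 4 panels.

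Of the class II list (18 genes with their regulators, such as Ciita and Rfx5), 0 of 18 tested genes were called between Rbpj-deleted and control tumours in microglia-like cells by edgeR, against 0.185% of all genes. At an unadjusted p under 0.05 there was 1, and DESeq2 called 0. Of 20 tested class I genes, 0 were called (2 at an unadjusted p under 0.05, 1 by DESeq2), and the list medians were -0.17 and 0.16, against -0.02 over all genes. In monocyte/macrophage-like cells 0 of 18 and 0 of 21 were called (2 and 2 at an unadjusted p under 0.05, 0 and 0 by DESeq2), against 0% of all genes, with medians 0.05 and -0.27 against 0.01. Against healthy brain, 8 class II and 16 class I genes rose in microglia-like cells of control tumours, where 4.52% of all genes rose, with list medians of 1.80 and 2.60 against -0.01. In monocyte/macrophage-like cells 7 and 17 rose, where 3.66% of all genes did. In Rbpj-deleted tumours, set against the same healthy libraries, 7 class II and 16 class I genes rose in microglia-like cells (7.24% of all genes) and 6 and 16 in monocyte/macrophage-like cells (3.51%). The 4 members are in neither list.

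Of 47 tested other genes of the MHC region, 2 were called between the tumour groups in microglia-like cells, both higher in Rbpj-deleted tumours. Vars, a valyl-tRNA synthetase, differed by 1.35 ± 0.23 (adjusted p = 0.0278, edgeR), and its libraries also parted by the split, at 27.4, 21.7 and 27.6 against 31.3, 59.7 and 67.2 CPM. Tnf, the inflammatory cytokine gene, differed by 1.20 ± 0.22 (adjusted p = 0.04999, edgeR). With the split entered as a batch term neither gene was called. Tnf also lost its call with scaling by library size alone and with barcodes of mixed lineage markers kept. The same held for a replicate block with the control numbers crossed. Both calls were lost in some leave-one-out fits, Vars without any 1 of the 4 tumour libraries (1.20 to 1.53) and Tnf without Rbpj-deleted replicate 1 (0.91) or either control library (1.46 and 0.99). The same list had 0 of 47 called in monocyte/macrophage-like cells (3 at an unadjusted p under 0.05, 1 by DESeq2).

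The genes most like each member were sought by Pearson's r of log2(CPM + 1) over 12 values, from 6 libraries in the 2 myeloid classes, which share libraries, depth and the split. H2-Eb1 was closest to H2-K2 (0.99), H2-Ea-ps (0.97), H2-Q2 (0.95) and Eef1d (0.95), and lowest with Stox2 (-0.92) and Map3k3 (-0.90). H2-Ea-ps was closest to H2-T23 (0.98), H2-Eb1 (0.97), H2-K2 (0.96) and Mcm5 (0.96), and lowest with Sqor (-0.93) and Map3k3 (-0.90). H2-K2 was closest to H2-Eb1 (0.99), H2-Ea-ps (0.96), H2-T23 (0.96) and H2-Q2 (0.96), and lowest with Map3k3 (-0.93) and Wdr13 (-0.92). H2-T23 was among the genes sharing most 31-base words with H2-K2, and whether reads counted for both add to this likeness was not tested. These 3 members had one another, and the class I genes H2-Q2 or H2-T23, among their nearest genes. The members were picked for their levels in these same libraries, so likeness among them is partly set by that choice.

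H2-T22 had a different set of neighbours, all on other chromosomes. It was closest to Trim12a (0.96), Tpm3-rs7 (0.93), Adat2 (0.93) and Trim5 (0.92), and lowest with Aspscr1 (-0.93) and Tpm3 (-0.92), against 0.86 with H2-Eb1, 0.74 with H2-Ea-ps and 0.85 with H2-K2. Trim12a, of a family of antiviral ubiquitin ligases, stood at 0.0327, 0 and 0 CPM in microglia-like cells of healthy replicate 1 and control replicates 1 and 2, and at 26.1, 49.4 and 43.6 CPM in the other 3 libraries. Tpm3-rs7, a copy related to the tropomyosin gene Tpm3, stood at 18.1, 24.4 and 15.0 against 354, 329 and 360 CPM. Tpm3 itself stood at 408, 504 and 458 against 81.5, 69.4 and 77.2 CPM, the reverse order.

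**Figure D5:**
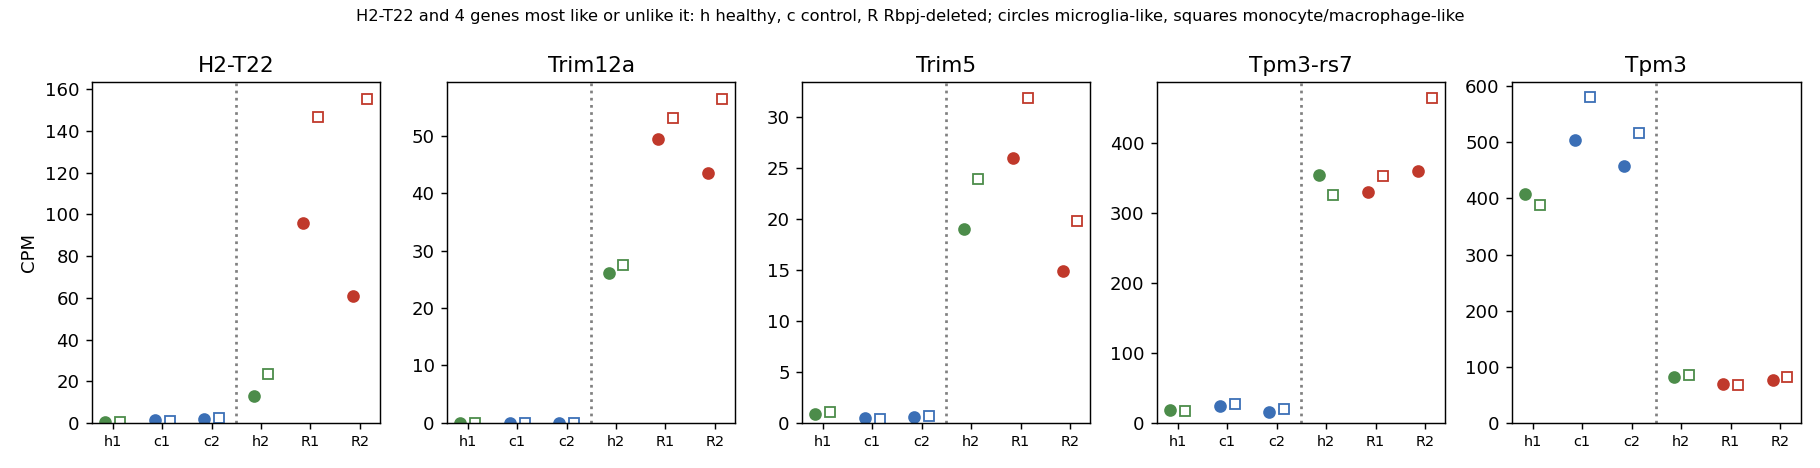
Level of H2-T22 and of Trim12a, Trim5, Tpm3-rs7 and Tpm3 in each library (CPM), in microglia-like and monocyte/macrophage-like cells. H2-T22, Trim12a, Trim5 and Tpm3-rs7 are higher with healthy replicate 2 and Tpm3 is lower, with no overlap between the sides.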

How the data were processed

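The authors' deposited file holds whole-number counts per gene and cell barcode, taken as UMI counts. The submitters' processing notes name kallisto 0.46.0, bustools 0.39.3 and mm10, with no role given. The authors' gene annotation is not stated in these sources, and symbols were taken from GENCODE vM21. The lowest barcode total in the file was 1000. Of 17362 barcodes, 17 with under 500 genes or over 10% mitochondrial counts were removed, as were 256 whose sequence had over 10 times the counts in another library and 2293 carrying at least 3 counts and 5% of the top cluster's level for markers of more than 1 lineage. No doublet caller was run. The last 2 removals and the cluster naming were chosen after seeing the data. Clustering left out 41 MHC genes and used 2000 variable genes, 30 components, 20 neighbours and Leiden resolution 1 (scanpy 1.11.5, Python 3.11.15), giving 27 clusters, 9 of them unnamed.

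Counts were summed per library and class (at least 20 cells), filtered with filterByExpr, scaled by TMM and fitted over all 6 libraries with edgeR 4.0.16 (robust quasi-likelihood, R 4.3.3, limma 3.58.1), with calls at an adjusted p under 0.05, and tested on simulated data. DESeq2 1.42.0 was an alternative, beside other scalings, no filter, replicate blocks, the split as a batch, mixed or copied barcodes kept and each library left out. Classes other than the 2 myeloid ones were scaled by their total. Intervals are exact (Poisson or binomial, 95%, scipy 1.17.1) and cover counting error only. Coding sequences were aligned to transcripts with Biopython 1.88. The named genes were the members, the 4 most and 2 least alike genes of each (at least 20 CPM in 1 library), 6 partner genes and list genes called between the tumours. The members and lists were chosen with earlier results of these data known.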

Additional observations from a re-analysis of the deposited data

How the results depend on the processing

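With 2 libraries per group, counts of called genes depended strongly on the settings, while the members' fitted differences between the tumour groups kept their sign in all settings except the batch term. With the split as a batch, H2-Eb1 and H2-Ea-ps reversed in monocyte/macrophage-like cells to -1.87 ± 0.71 and -2.61 ± 0.65 (log2 ± SE). H2-K2 turned to -0.59 ± 0.57, a value no larger than about its SE. That batch term rests on 1 healthy library against the other. Summing all kept cells of a library, 3 members were higher on the side of healthy replicate 2 without overlap, where 1 was in microglia-like and 2 in monocyte/macrophage-like cells. The lowest and highest library ratios of each side in MHC-rich cells, and the number of members whose shares of cells did not overlap, were near their main values in the alternatives run for them. The shares of cells themselves depend on depth and were up to 22.8% without thinning where thinning gave 7.92% (H2-K2, control replicate 1).

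Between Rbpj-deleted and control tumours, 20 genes were called in microglia-like cells, against 104 by DESeq2, 36 with copied barcodes kept, 111 with the split as a batch, 246 with no filter, and 6 (without control replicate 1) to 263 (without healthy replicate 2) with 1 library left out. In monocyte/macrophage-like cells 0 were called, against 18 by DESeq2, 1 with mixed barcodes kept, 80 with no filter and 0 to 18 with 1 library left out. Against healthy brain, Rbpj-deleted tumours gave 1060 calls in microglia-like cells (no filter 1413, library size alone 1321, mixed barcodes kept 1243, 1 library left out 404, without Rbpj-deleted replicate 1, to 1128) and 608 in monocyte/macrophage-like cells (DESeq2 998, split as a batch 131, no filter 1507, 1 library left out 146 to 860). Control tumours gave 571 (no filter 873, 1 library left out 277 to 726) and 579 (DESeq2 964, split as a batch 218, no filter 1522, 1 library left out 161 to 712). The causes were not tested.

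The shared replicate numbers did not pair the libraries: correlations of same-numbered deviations between groups were 0.01, 0.01 and 0.02 in microglia-like and -0.29, 0.27 and -0.38 in monocyte/macrophage-like cells. A replicate block gave 48 calls between the tumour groups in microglia-like cells, and in monocyte/macrophage-like cells 298 for Rbpj-deleted and 270 for control tumours against healthy brain. With the control numbers crossed, chosen after seeing the data, the latter counts were 1569 and 1530, and 14 between the tumour groups. Depth limits H2-T22 on the side of healthy replicate 1 (3 to 9 UMIs per myeloid class) and class II ratios in healthy microglia-like cells.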

Other observations

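More than 2500 kb from H2-Eb1, 8 genes higher and 5 genes lower with healthy replicate 2, of 10654 tested in microglia-like cells, parted the libraries by at least 4-fold. They were listed after their values were seen and lie on several chromosomes. In microglia-like cells the smallest gap between the sides, on CPM + 1, was 26.2-fold for Trim12a, 23.3-fold for Trim30d and 8.32-fold for Trim5, 3 genes of the antiviral tripartite motif family on chromosome 7. It was 13-fold for Tpm3-rs7 on chromosome 14. Against these, Hmgn2, a nucleosome-binding protein gene on chromosome 4, was 10.1-fold lower with healthy replicate 2, Phgdh, an enzyme gene of serine synthesis on chromosome 3, 8.39-fold lower, and Tpm3, also on chromosome 3, 4.97-fold lower. In monocyte/macrophage-like cells Trim12a (28.5-fold), Tpm3-rs7 (11.7-fold) and Trim5 (9.89-fold) were again higher and Hmgn2 (7.92-fold) and Tpm3 (4.47-fold) lower.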
